A study of Homo sapiens with 2 samples.

Results

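The genes described here are the HSF1-driven heat shock proteins, their co-chaperones and the chaperonins, without the chaperones of the endoplasmic reticulum. They were chosen by gene name from a given list, and all 44 listed names were found among the 58233 genes of the expression table. The list is called cytosolic, but HSPA9, HSPD1, HSPE1 and DNAJA3 encode mitochondrial proteins and HSPA13 a protein of the endoplasmic reticulum. HSPA7 is a pseudogene that stands beside HSPA6. RNA was sequenced from MDA-MB-231, a mesenchymal-like human breast cancer line. The shCon cells carried a non-targeting lentiviral hairpin and the shMPP7 cells a hairpin against MPP7, a gene for a membrane-associated scaffold, and the aim was to find transcripts that differ on MPP7 depletion. Cells of both groups had the same lentiviral infection at a multiplicity of 10, a medium change at 12 h, a fluorescence check at 72 h and 7 days of puromycin selection. The labels describe stable lines and give no separate clones, and there was 1 library per group, so no difference below has a replicate check.

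Heat shock proteins keep other proteins folded. HSP70 binds exposed hydrophobic stretches with the help of J proteins, which bring clients and start ATP hydrolysis, and of exchange factors (HSP110 and BAG proteins), which release ADP. HSP90 takes over many kinases and receptors from HSP70 through the adaptor STIP1, and the ring-shaped chaperonin TRiC folds actin and tubulin. When damaged protein builds up, the transcription factor HSF1 forms a trimer and binds heat shock elements, repeats of GAA units in alternating orientation. Cancer cells commonly carry high levels of this machinery. HSPA6 is known as a strictly inducible human HSP70 gene, with little transcript in unstressed cells and strong induction by proteotoxic stress.

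Total estimated counts were 23928620 (shCon) and 24513089 (shMPP7). MPP7 itself had 42 and 21 counts, and the ratio was 0.488 (95% interval 0.275 to 0.843) after scaling to library size. In FPKM, MPP7 was at 0.5 in shCon and 0.316 in shMPP7. It stood below the minimum of 100 counts over both libraries that is used further down. Of the markers chosen for the line, VIM, CD44, EGFR, AXL and CAV1 were present at 25.5 to 3317 FPKM. CDH1, ESR1, PGR and KRT20 had at most 5 counts in either library, while ERBB2 had 28.7 and 30.6 FPKM. The leukocyte markers PTPRC and CD3E and the hepatocyte marker ALB had 0 or 1 count, and endothelial PECAM1 had 68 and 73.

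Most of these chaperone genes stood at nearly the same level in both libraries. Together the 44 genes took 1.24% of all counts in each library, at 12358 CPM (counts divided by the library total, on a fixed scale) in shCon and 12382 in shMPP7, and their CPM ratio was 1.00 (0.997 to 1.01). Ratios are shMPP7 over shCon throughout, and their exact 95% intervals cover counting error only. The sum over all members can hide ratios on either side of 1, such as 0.895 for the summed HSP110 genes and 1.07 for the summed BAG genes. Levels were compared between genes in FPKM, which also takes account of transcript length. HSPA8, the constitutive HSP70, was the most abundant member in both libraries, at 1660 FPKM in shCon and 1767 in shMPP7. HSP90AB1, the constitutive HSP90, came next with 1014 and 1072 FPKM. These 2 genes and HSP90AA1 supplied 48.9% of the members' counts in shCon and 49.1% in shMPP7. In all, 17 members were above 100 FPKM in both libraries and 4 were below 1 FPKM in both.

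**Figure D1:**
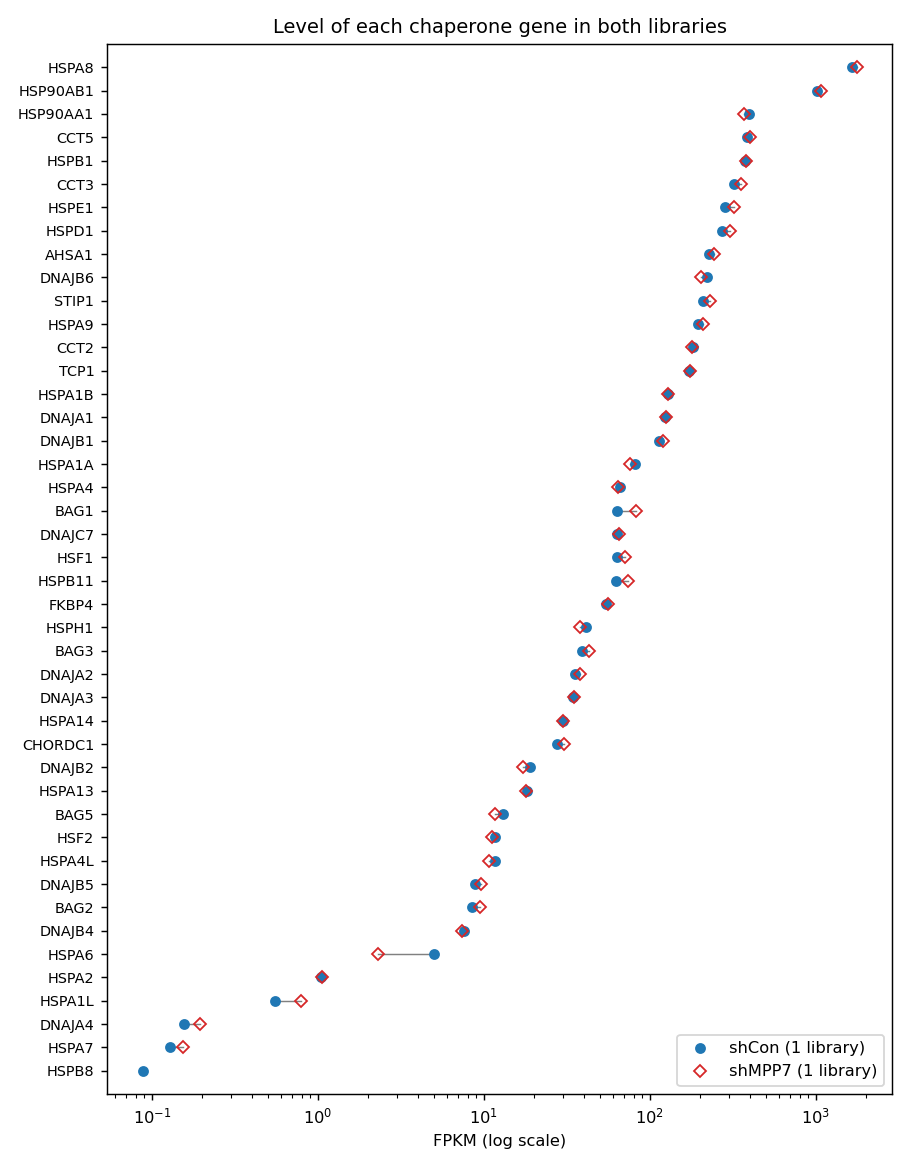
FPKM of all 44 genes (log axis) in the shCon library (filled circles) and the shMPP7 library (open diamonds), ordered by the shCon level; HSPB8 has no diamond because it was listed at 0 in shMPP7. The paired symbols nearly coincide for most genes, and HSPA6 shows the widest gap among genes above 1 FPKM, from 5.04 to 2.31.

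Of the 44 members, 40 had at least 100 counts over both libraries, and differences were counted in these. A gene was counted as higher when its CPM ratio was at least 25% above 1, and as lower at the same fold in the other direction, 20% below 1. None of the 40 was higher, where 3.06% of all 12155 genes with at least 100 counts were. HSPA6 and HSPA4L were lower, 5.00% of the members against 7.47% of all genes, so the share lay near the background. Only HSPA6 was at least 2-fold lower, a size reached by 0.107% of all genes, and none was 2-fold higher (0.156% of all genes). The ratio was above 1 for 18 members, where it was above 1 for 44% of all genes. The median log2 CPM ratio of the 40 members was -0.01, and that of all genes -0.02.

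Most members differed by little. A ratio within 1.1-fold was found for 33 of the 40 (82.5%), against 60.7% of all genes with at least 100 counts. Among genes with at least 1000 counts the shares were 30 of 36 members (83.3%) and 71.7% of all genes. The count interval lay above 1 for 9 members (22.5%) and below 1 for 9, while 22 intervals included 1. Those above 1 belonged to HSPA8, HSP90AB1, HSPB11, HSPE1, BAG1, BAG3, HSF1, AHSA1 and CCT3, and those of HSP90AB1, HSPE1 and HSF1 left out 1 only narrowly. Those below 1 belonged to HSPA1A, HSPA1B, HSPA6, HSPA4, HSPA4L, HSPH1, HSP90AA1, DNAJB2 and DNAJB6. Among all genes with at least 100 counts 13.8% lay above and 21.5% below, and among those with at least 1000 counts 17.8% and 24.7%. With no replicates, an interval that leaves out 1 compares these libraries and not the conditions.

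**Figure D2:**
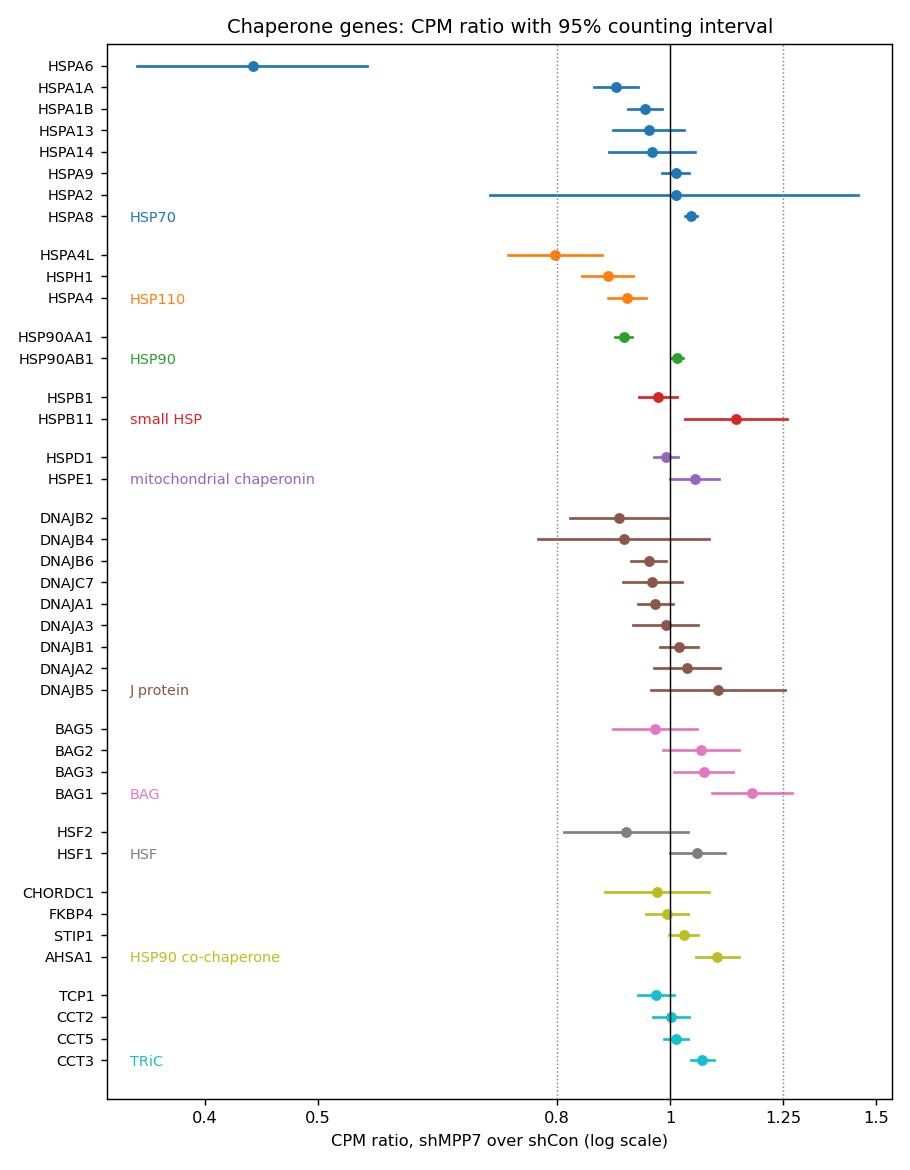
CPM ratio of shMPP7 over shCon (log axis) for the 40 genes with at least 100 counts, grouped by role. Points are ratios, bars the 95% counting intervals, the solid line marks equal levels and the dotted lines 25% above and 20% below; HSPA6 lies alone at 0.440 and every other point lies between 0.798 and 1.18.

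HSPA6, the stress-inducible HSP70 also called HSP70B', stood apart from the rest of the machinery. The gene (ENSG00000173110, protein coding, without introns) occupies chr1:161524540-161526910 (GRCh38, plus strand). Its count was 255 in shCon (Poisson interval 225 to 288) against 115 in shMPP7 (94.9 to 138). The levels were 10.7 against 4.69 CPM, or 5.04 against 2.31 FPKM. The library with the MPP7 hairpin was thus lower, with a CPM ratio of 0.440 (0.350 to 0.551), which is 2.27-fold lower (1.82 to 2.86). In bulk RNA, fewer cells that express the gene and less RNA per cell cannot be told apart. HSPA6 ranked 8 from the lowest ratio among 12155 genes. Of the 2777 genes with 185 to 740 counts, a range centred on HSPA6, 5 were at least 2-fold lower (0.18%) and 3 had a ratio as low (0.108%), HSPA6 included.

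HSPA7, the neighbouring pseudogene (ENSG00000225217), lies on the same strand at positions 161606291 to 161608217 of chromosome 1. Its transcript aligned to that of HSPA6 over 1933 bases at 98.2% identity, so reads can be misassigned between them. HSPA7 had 4.99 counts in shCon and 5.97 in shMPP7, with a CPM ratio of 1.17 (0.298 to 4.85), and a difference was not detectable at this depth. Summed, the pair had 260 and 121 counts and a ratio of 0.454 (0.363 to 0.566), so the split between the 2 genes changed the value little. No other gene of GENCODE 29 shared exonic bases with HSPA6.

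**Figure D3:**
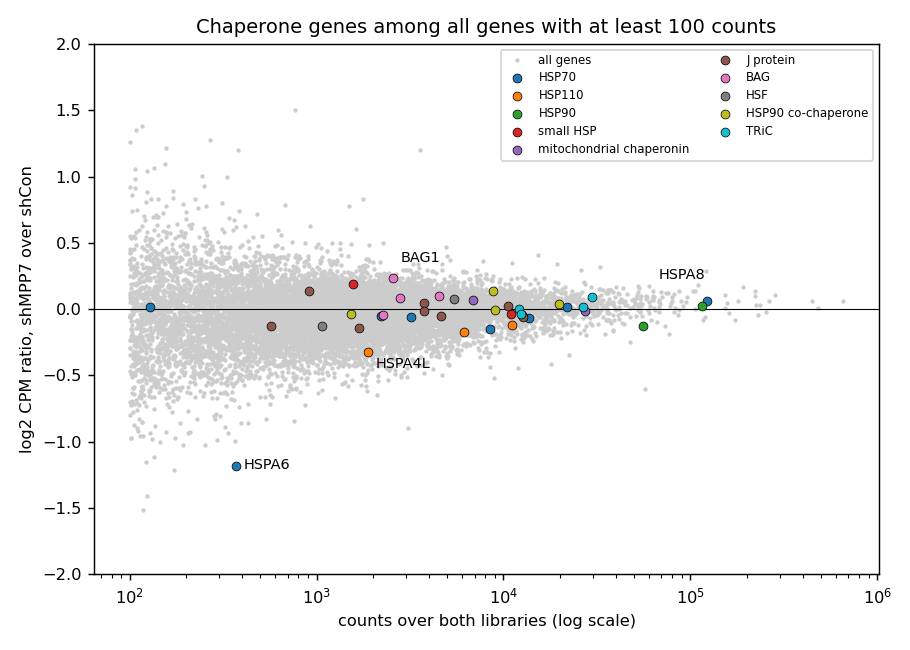
Log2 CPM ratio of shMPP7 over shCon against counts over both libraries (log axis) for genes with at least 100 counts, with the 40 chaperone genes coloured by role over all genes in grey; the 10 genes beyond 4-fold in either direction, log2 of 2, lie outside the axis. The coloured points run along the zero line at all depths, and HSPA6 lies at the lower edge of the grey cloud at a log2 ratio of -1.18.

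The upstream sequences of HSPA6 and other members were searched for heat shock elements. The RefSeq promoter windows (GRCh38.p14, 250 bases before to 50 after a gene's start) were searched on both strands for the 2-unit heat shock element GAANNTTC or TTCNNGAA (N is any base). The 3-unit form, which contains 2 overlapping 2-unit matches, adds NNGAA to the first or NNTTC to the second. Windows were given for 39 members, and 22 of these (56.4%) held a 2-unit match, against 16.2% of all 27305 genes with a window. Some genes had several windows, and by window the shares were 41.1% and 13.5%. The list was given as HSF1-driven genes, so an excess of such matches may follow from that choice. A 3-unit match was found in 8 members (20.5%) and in 0.608% of all genes. The 8 were HSPA6, HSPA8, HSP90AA1, HSP90AB1, HSPD1, CHORDC1, DNAJA1 and DNAJB6. Their CPM ratios other than that of HSPA6 ran from 0.913 to 1.04. All 7 of these lay within 1.1-fold, as did 71.7% of all genes with at least 1000 counts. The count intervals of HSP90AA1 and DNAJB6 lay below 1, and those of HSPA8 and HSP90AB1 above it. Whether a match bears on any of these ratios was not tested. The 200 bases before the RefSeq start, which can differ from the GENCODE start, are given for HSPA6, for the closely related inducible pair HSPA1A and HSPA1B, and for HSPA8, HSP90AA1 and DNAJB1 as members with abundant transcripts. Matches are in capitals, 5′ to 3′ on the strand of the gene. HSP90AA1 and DNAJB1 have further RefSeq starts, and the windows shown are those with upstream matches. A match describes letters and is not evidence that HSF1 was bound.
HSPA6, chr1:161524340-161524539, plus strand: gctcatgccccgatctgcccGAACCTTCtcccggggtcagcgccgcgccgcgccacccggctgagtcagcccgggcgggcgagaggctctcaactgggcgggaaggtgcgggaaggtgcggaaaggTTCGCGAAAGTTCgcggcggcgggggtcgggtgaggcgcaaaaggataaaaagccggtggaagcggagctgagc
HSPA1A, chr6:31815343-31815542, plus strand: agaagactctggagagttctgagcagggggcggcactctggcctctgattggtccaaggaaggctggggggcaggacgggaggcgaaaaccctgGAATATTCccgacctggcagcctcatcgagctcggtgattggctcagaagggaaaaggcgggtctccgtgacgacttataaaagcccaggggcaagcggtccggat
HSPA1B, chr6:31827538-31827737, plus strand: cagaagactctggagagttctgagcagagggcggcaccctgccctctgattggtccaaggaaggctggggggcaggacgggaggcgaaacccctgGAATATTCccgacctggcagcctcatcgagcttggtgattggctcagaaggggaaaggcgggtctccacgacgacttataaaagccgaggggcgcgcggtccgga
HSPA8, chr11:123062137-123062336, minus strand: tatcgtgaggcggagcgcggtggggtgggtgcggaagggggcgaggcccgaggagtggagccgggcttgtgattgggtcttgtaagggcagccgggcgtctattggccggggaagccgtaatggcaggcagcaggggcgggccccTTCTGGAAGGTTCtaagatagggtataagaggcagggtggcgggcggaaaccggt
HSP90AA1, chr14:102087045-102087244, minus strand: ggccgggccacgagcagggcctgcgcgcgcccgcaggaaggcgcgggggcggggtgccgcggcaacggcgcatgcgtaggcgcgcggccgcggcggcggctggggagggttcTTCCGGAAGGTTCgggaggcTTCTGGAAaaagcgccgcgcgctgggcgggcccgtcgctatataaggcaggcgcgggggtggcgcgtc
DNAJB1, chr19:14518398-14518597, minus strand: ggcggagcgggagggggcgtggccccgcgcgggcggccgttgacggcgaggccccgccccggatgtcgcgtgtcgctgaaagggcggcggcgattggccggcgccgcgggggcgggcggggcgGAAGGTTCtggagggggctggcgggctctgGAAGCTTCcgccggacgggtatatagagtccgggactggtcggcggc

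HSPA6 carried a 3-unit match that begins 74 bases before its start and a separate 2-unit match 180 bases before it. HSPA1A and HSPA1B each carried 1 match, the letters GAATATTC, 106 and 105 bases before the start, and their 200 bases were identical at 188 aligned positions. The window of HSPA1L, which lies head to head with HSPA1A on the opposite strand, held the same match. HSPA8 had a 3-unit match 55 bases before its start and another at 230 bases, beyond the stretch shown. HSP90AA1 had a 3-unit match at 88 bases and a 2-unit match at 68 bases. DNAJB1 had 2-unit matches at 77 and 47 bases.

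The inducible HSP70 genes HSPA1A and HSPA1B, classical HSF1 targets, had ratios slightly below 1 in CPM. HSPA1B was at 1.00 in FPKM, where ratios ran 1.04 times those in CPM in the median over 12153 genes. It lay 1.0% above that offset. With the trend of the ratio on transcript length and GC content subtracted, HSPA1A and HSPA1B were farther from 1, at 0.857 and 0.908. HSPA1A (chromosome 6, positions 31815464 to 31817946) had 4383 counts in shCon and 4040 in shMPP7, for a CPM ratio of 0.900 (0.862 to 0.939). HSPA1B (31827735 to 31830255) had 6961 and 6790 counts, and the ratio was 0.952 (0.921 to 0.985). Their transcripts aligned over 2152 bases at 98.6% identity and both had fractional counts, so the division between them is uncertain. As a sum they had 11344 and 10830 counts, with a ratio of 0.932 (0.908 to 0.957), and HSPA1B took 61.4% of the sum in shCon and 62.7% in shMPP7. HSPA6 lay far below this sum, since its interval ended at 0.551. In FPKM, HSPA1A was at 81.5 and 76.4 and HSPA1B at 128 and 128.

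The constitutive and compartment-specific HSP70 genes differed by less than 5%. HSPA8, which also uncoats clathrin vesicles, had a CPM ratio of 1.04 (1.03 to 1.05) on 59607 and 63658 counts. HSPA9, the mitochondrial HSP70 that helps draw proteins across the inner membrane, had a ratio of 1.01 (0.985 to 1.04). For HSPA14, a ribosome-associated HSP70, the ratio was 0.965 (0.887 to 1.05), and for HSPA13 it was 0.959 (0.894 to 1.03). These last 3 intervals included 1. With the length and GC trend subtracted HSPA13 was at 1.09. Part of the HSPA14 exons, 17.4%, is shared with another gene on the same strand, which had 425 and 493 counts and is named AC069544.2 in the table.

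HSPA2 and HSPA1L, both best known from the testis, were at very low levels. HSPA2 had 63 and 65.3 counts, 1.04 and 1.06 FPKM, and a ratio of 1.01 (0.701 to 1.45). HSPA1L had 30 and 43 counts, 0.549 and 0.795 FPKM, and a ratio of 1.40 (0.858 to 2.31). At these depths the intervals included both no difference and a difference of 25%.

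All 3 HSP110 genes had ratios below 1, where the ratio was above 1 for 44% of all genes with at least 100 counts. The 3 stayed below 1 under each scaling tried, all on the same 2 libraries. Their count intervals lay below 1, as did 24.7% of those of all genes with at least 1000 counts. HSP110 proteins are HSP70 relatives that act as exchange factors and help to dissolve aggregates. HSPA4L (chromosome 4, positions 127781821 to 127840733) had 1034 and 845 counts, for a CPM ratio of 0.798 (0.728 to 0.874). The ratio of HSPH1 was 0.885 (0.841 to 0.930) on 3221 and 2919 counts, and HSPA4 had 5754 and 5418 counts, with a ratio of 0.919 (0.886 to 0.954). The sum of the 3 gave 0.895 (0.870 to 0.921). The longest transcripts of these genes measure 4825 to 10790 bases with a GC content of 38.1% to 42.5%. The trend with both properties was fitted to the protein-coding genes, and with it subtracted the ratios were 0.933 for HSPA4L, 0.961 for HSPH1 and 0.969 for HSPA4. Over the 40 members, that subtraction moved 21 nearer to 1 and 19 farther from it. HSPA4L was then no longer counted as lower, and in FPKM (11.6 and 10.8) its ratio was 0.928. The trend used each gene's longest transcript, which need not be the one expressed, so the subtracted values rest on that choice.

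The 2 HSP90 genes lay on either side of 1 in CPM. The inducible HSP90AA1 had 28688 counts in shCon and 26842 in shMPP7, for a CPM ratio of 0.913 (0.898 to 0.929). HSP90AB1 had 56347 and 58573 counts, and the ratio was 1.01 (1.00 to 1.03), but was at 0.998 with the length and GC trend subtracted. The intervals of the pair did not overlap, and their sum was at 0.981 (0.971 to 0.990). Each has a processed pseudogene with more than 97% identity, but HSP90AA2P had 30.0 and 14.0 counts and HSP90AB3P 4 and 6, few beside the parent genes.

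The HSP90 co-chaperone genes lay between 0.975 and 1.10. AHSA1, which stimulates the HSP90 ATPase, had 4136 and 4653 counts, and its CPM ratio was 1.10 (1.05 to 1.15). STIP1, the HSP70 to HSP90 adaptor, was at 1.03 (0.999 to 1.06), and FKBP4, an immunophilin of steroid receptor complexes, at 0.995 (0.954 to 1.04). CHORDC1, an HSP90-binding zinc protein, was at 0.975 (0.881 to 1.08) in CPM, although its FPKM were 27.6 and 30.4, and it was at 1.13 with the length and GC trend subtracted. Only the interval of AHSA1 left out 1, and it was at 1.03 once the length and GC trend was subtracted.

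Small heat shock proteins hold unfolding clients without using ATP. HSPB1 (HSP27), with 374 and 381 FPKM, was among the 5 most abundant members in each library and had 5452 and 5454 counts, with a CPM ratio of 0.977 (0.940 to 1.01). HSPB11, also called IFT25 and known as part of the intraflagellar transport machinery, had 724 and 845 counts, for a ratio of 1.14 (1.03 to 1.26). It was at 1.05 with the length and GC trend subtracted. HSPB8, the partner of BAG3 in the clearance of aggregates, had 4 counts in shCon (1.09 to 10.2) and was listed at 0 in shMPP7. A count of 0 allows up to 3 counts, 0.122 CPM, so no fold is given.

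The mitochondrial chaperonin genes HSPD1 (HSP60) and HSPE1 (HSP10) form the barrel and lid of a folding chamber, and they lie head to head on chromosome 2. HSPD1 had 13537 and 13756 counts, and the CPM ratio was 0.992 (0.969 to 1.02). HSPE1 had 3299 and 3548 counts, with a ratio of 1.05 (1.00 to 1.10), at 0.973 with the trend subtracted. The pair summed to a ratio of 1.00 (0.982 to 1.03). Exons of the 2 genes overlap by 281 bases on opposite strands, and no source used here says whether counting used strand.

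J proteins, which choose the clients of HSP70, were counted as neither higher nor lower in any of the 9 genes with at least 100 counts. DNAJB1 (HSP40), an HSF1 target and the main cytosolic partner of inducible HSP70, had 5188 and 5411 counts, for a CPM ratio of 1.02 (0.980 to 1.06). DNAJA1, another abundant cytosolic J protein, was at 0.972 (0.938 to 1.01), with 6278 and 6250 counts. Whether either ratio bears on the difference in HSPA6 was not tested. DNAJB6, which keeps polyglutamine proteins from aggregating, was at 0.959 (0.926 to 0.993). The ratio of DNAJB2, known from neurons, was 0.905 (0.821 to 0.997). Only these last 2 J protein intervals left out 1. They lay below it, 22.2% of the 9 against 21.5% of all genes with at least 100 counts. No J protein interval lay above 1, where 13.8% of all genes did. DNAJA2, a cytosolic J protein, was at 1.03 and DNAJA3, its mitochondrial relative, at 0.991. DNAJB4 and DNAJB5, relatives of DNAJB1 with 7.37 to 9.65 FPKM, were at 0.913 (0.771 to 1.08) and 1.10 (0.963 to 1.254). DNAJC7, which binds both HSP70 and HSP90, was at 0.966 (0.911 to 1.02). DNAJA4 had 7 and 8 counts, and the ratio was 1.12 (0.354 to 3.61).

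BAG proteins release nucleotide from HSP70 and send clients to different fates. BAG1 (chr9:33247820-33264720, minus strand), which links HSP70 to the proteasome, had 1163 counts in shCon and 1400 in shMPP7, with a CPM ratio of 1.18 (1.09 to 1.27). Its ratio was the highest of the 40 members, and in FPKM (63.9 and 82.9) it was 1.30. BAG3, an HSF1 target that links HSP70 to autophagy, had 2159 and 2363 counts, for a ratio of 1.07 (1.01 to 1.13). BAG2, an inhibitor of the ubiquitin ligase STUB1, was at 1.06 (0.986 to 1.15), and BAG5 at 0.971 (0.893 to 1.06). With the trend subtracted BAG2 was at 1.22, BAG1 at 1.17, BAG3 at 1.02 and BAG5 at 1.03. The sum over all 4 had a ratio of 1.07 (1.03 to 1.11). Of the exonic bases of BAG2, 42.7% are shared with RAB23 on the opposite strand, which had 657 and 629 counts.

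The genes of both heat shock transcription factors lay within 1.1-fold, as did 60.7% of all genes with at least 100 counts. HSF1 had 2602 and 2813 counts, 63.6 and 71.3 FPKM, and a CPM ratio of 1.06 (1.00 to 1.11), at 1.00 with the length and GC trend subtracted. HSF2, a related factor that can trimerise with HSF1, had 548 and 515 counts and a ratio of 0.917 (0.812 to 1.04). HSF1 acts after activation of its protein, which transcript levels do not measure.

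The TRiC subunit genes were abundant, with ratios close to 1. CCT3 had 14214 and 15515 counts, and the CPM ratio was 1.07 (1.04 to 1.09). CCT5 was at 1.01 (0.988 to 1.04), CCT2 at 1.00 (0.967 to 1.04) and TCP1 at 0.972 (0.938 to 1.01). Of these members only CCT3 had an interval that left out 1. The other 4 ring subunits are not among the 44. CCT4 was at 0.963 (0.937 to 0.991) and CCT6A at 0.957 (0.927 to 0.988), with intervals below 1. CCT7, at 1.05 (1.03 to 1.07), had an interval above 1, and CCT8 was at 0.993 (0.962 to 1.02). Among all genes with at least 1000 counts 17.8% of intervals lay above 1 and 24.7% below. All 8 measured ring subunits lay within 1.1-fold, as did 71.7% of all genes with at least 1000 counts.

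A wider list of 58 further chaperone and HSF1-related genes gave a similar account. Of its 50 genes with at least 100 counts, none was counted as higher and 3 as lower, where 7.47% of all genes were lower. Among the 3 were DNAJC13, an endosomal J protein, at 0.755 (0.685 to 0.833), and DNAJC2, a ribosome-associated one, at 0.786 (0.666 to 0.923). None of the list was counted as lower once the length and GC trend was subtracted, a setting without a share of all genes given. The count interval lay above 1 for 13 of its 50 genes (26%, against 13.8% of all genes) and below 1 for 7 (14%, against 21.5%). Of the 7 below, 5 were among its 8 measured J protein genes. The median log2 CPM ratio of the 50 genes was 0.02. The 7 further HSF1 targets all lay within 1.1-fold, as did 60.7% of all genes with at least 100 counts and 71.7% with at least 1000. The ubiquitin gene UBB was at 1.03 (1.01 to 1.04) and the autophagy receptor gene SQSTM1 at 1.09 (1.07 to 1.12). All 6 small heat shock protein genes of the list, CRYAB included, had under 100 counts.

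Ratios from the deposited FPKM ran higher than those from counts. The FPKM ratio was 1.04 times the CPM ratio in the median over 12153 genes, and 31 of the 40 members lay within 5% of that offset. The largest departures were those of HSPA4L (11.8% above the offset) and BAG5 (11.8% below it). HSPA6 lay 0.0853% above it, so its difference was alike on both scales, with an FPKM ratio of 0.459. For 11 members the CPM and FPKM ratios fell on opposite sides of 1, HSPA1B, HSPB1 and HSPD1 among them.

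**Figure D4:**
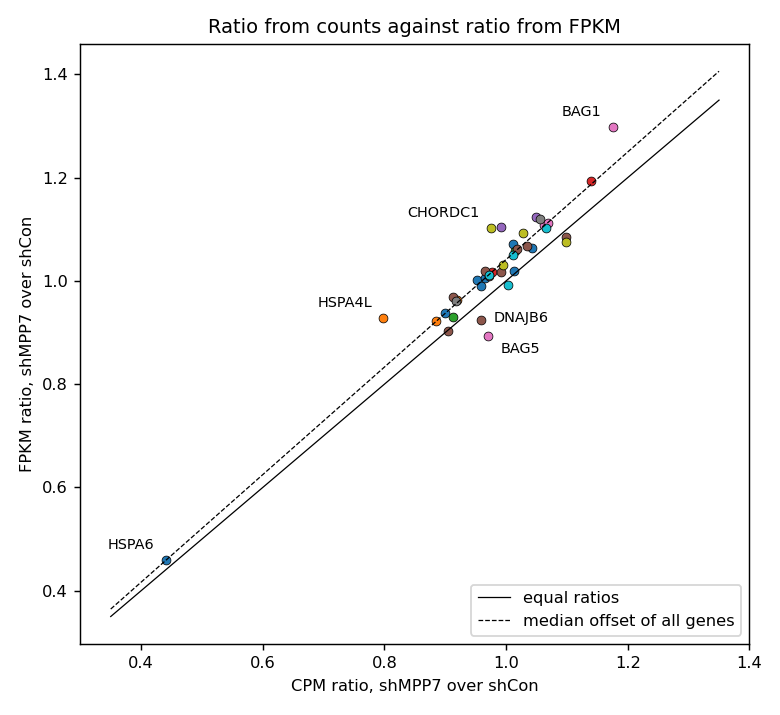
FPKM ratio against CPM ratio of shMPP7 over shCon for the 40 genes with at least 100 counts, coloured by role as in the plot over all genes. The solid line marks equal ratios and the dashed line the median offset of 1.04 over all genes; HSPA6 lies on the dashed line at the lower left, and HSPA4L, CHORDC1 and BAG1 lie above it.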

How the data were processed

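The authors deposited 1 table with an estimated count and an FPKM value per gene for each library, per the file headers. Of the deposited estimated counts above 0, 71.8% in shCon and 73.0% in shMPP7 were whole numbers, and 14 of the 44 members had fractions. TopHat2 2.0.9, Cuffdiff and hg19 appear in the submitters' processing notes with no role or order; no source used here names the counting tool. FPKM by its name is per transcript length and library size, and the file headers give no length or scaling used.

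CPM values were counts per library total on a fixed scale. Ratios have exact 95% Clopper-Pearson intervals conditional on the summed, rounded count, and single counts have exact Poisson intervals. Both cover counting error only, and reads without molecular identifiers are not independent molecules. With 1 library per group no p-value was computed. A difference was a fixed size, either 25% above or 20% below 1, or 2-fold, among genes with at least 100 counts over both libraries; a count of 0 was taken to allow 3 counts. Where a name had several lines, that of highest mean was kept (no member was affected).

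Positions and exons came from GENCODE 29 (GRCh38) through the Ensembl ID, as did the length and GC content of each gene's longest transcript. Promoters came from RefSeq (GRCh38.p14). Similar transcripts were searched with blastn 2.17.0 on the transcript strand (at least 97% identity over at least 100 bases). TMM factors came from edgeR 4.0.16, with Python 3.11.15 and scipy 1.17.1 for the rest. The interval was tested on simulated data, with the outcome not reported here, and such a test does not reach variation between cultures. Alternatives were FPKM with 1 added, TMM or median-of-ratios scaling, minimums of 20 and 1000 counts, 0.5 CPM added, the length and GC trend subtracted, and lines of 1 name or near-identical pairs summed. All 44 members are named; of the wider list, the genes counted as higher or lower were to be named, and other genes of it were named after their values were seen, as were the members whose promoters are shown. The values of some genes of the wider list are not reported here. The members and lists were chosen with earlier results of these data known.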

Additional observations from a re-analysis of the deposited data

How the results depend on the processing

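No paired analysis was possible because each group had 1 library, and for the same reason no library could be left out. The lower ratio of HSPA6 kept its direction in all 7 alternatives computed per gene, from 0.419 with the length and GC trend removed to 0.548 in FPKM with 1 added. The 2 members counted as lower (20% or more below 1) became 1 (HSPA6) in FPKM with 1 added, with median-of-ratios or TMM scaling, and with the trend removed, and 1 (HSPA4L) at a minimum of 1000 counts. The members counted as higher (25% or more above 1) went from 0 to 1 in FPKM (BAG1) and at a minimum of 20 counts (HSPA1L). In FPKM with 1 added BAG1 was at 1.29, and the median log2 ratio of all genes was 0.062 above that in CPM. The 1 member at least 2-fold lower became 0 in FPKM with 1 added and at a minimum of 1000 counts, which HSPA6 does not reach. Without the added 1 the FPKM ratio of HSPA6 was 0.459, still at least 2-fold lower. In the wider list, genes counted as higher went from 0 to 2 in FPKM and to 1 at a minimum of 20 counts, and those lower from 3 to 0 with the trend removed. No share of all genes is given under these alternatives, so the counts cannot be read against a background. Where no construction is named, the cause was not tested. The median log2 ratio of the members moved by less than 0.05 in every alternative, changing sign in some. For 18 of 40 members the ratio lay on both sides of 1 across alternatives. It crossed 1 for 11 in FPKM, for 9 with the trend removed and for 3 under TMM or median-of-ratios scaling. Depth limits HSPA7, HSPB8, DNAJA4 and HSPA1L, each under 100 counts.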
